A study of Homo sapiens with 4 samples.

Results

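The 4 mature miRNAs described here are hsa-miR-483-5p, hsa-miR-483-3p, hsa-miR-675-5p and hsa-miR-675-3p, chosen by name from the 2656 mature miRNAs in the deposited count table, because their hairpins lie in the imprinted 11p15 region of chromosome 11. Small RNAs were sequenced from RD cells, an established line of human embryonal rhabdomyosarcoma, a tumour with skeletal muscle features, which had received no treatment. There were 4 groups with 1 library and 1 biological replicate each, all from this line: the input lysate, a native pull-down with LacZ probes as control, and 2 native pull-downs with the EVEN and the ODD probe sets. The EVEN and ODD probes are biotinylated antisense oligonucleotides against exon 2 of HIPK3, the exon that forms the circular RNA circHIPK3, and LacZ is a bacterial mRNA with no counterpart in the cells.

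Imprinted genes are expressed from only the maternal or only the paternal chromosome. In the 11p15 region IGF2, which encodes a fetal growth factor, is expressed from the paternal copy, and the long non-coding RNA H19 from the maternal copy. Embryonal rhabdomyosarcoma often loses the maternal copy of this region, a change known for high IGF2 and low H19. miR-483 is made from an IGF2 intron: its 3p arm is known to repress the pro-apoptotic gene BBC3 (PUMA), and its 5p arm has been reported to raise IGF2 transcription. miR-675 is cut from the first exon of H19, has been described as a restraint on placental growth, and promotes differentiation of skeletal muscle cells. Each hairpin gives a 5p and a 3p arm, which pair in the precursor, and usually one of them is loaded into Argonaute.

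In GENCODE release 29 on GRCh38, MIR483 lies on chromosome 11 at 2134134 to 2134209, minus strand, in an intron of all 8 annotated IGF2 transcripts (gene ENSG00000167244.19) and of 1 transcript of the read-through gene INS-IGF2. MIR675 lies at 1996759 to 1996831, also on the minus strand. Of 12 annotated H19 transcripts (gene ENSG00000130600.18), 5 span it, 4 with the hairpin inside exon 1 and 1 with it in an intron. The hairpins are 137 kb apart. Mature sequences in the RefSeq-derived table (GRCh38.p14) matched 2 of the 4 members, both arms of miR-675, and not miR-483-5p or miR-483-3p. They are shown because the near absence of these arms from every library is a main observation. In the arms, capitals mark the seed, bases 2 to 8, which sets most target choice. In the MIR675 hairpin, capitals mark the arms.
hsa-miR-675-5p: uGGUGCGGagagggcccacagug
hsa-miR-675-3p: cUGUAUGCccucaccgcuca
MIR675 hairpin: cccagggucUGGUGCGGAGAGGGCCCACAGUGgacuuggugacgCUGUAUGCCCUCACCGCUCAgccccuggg

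The miR-675-5p seed was shared by 1 other listed miRNA with a sequence, hsa-miR-4466, and the miR-675-3p seed by 0. The 7-letter seed matches, CCGCACC for miR-675-5p and GCATACA for miR-675-3p, were searched on the sense strand of HIPK3 exon 2, joined end to start as in the circle. The exon is 1099 nt long, at 33286413 to 33287511 of chromosome 11, plus strand. Neither match occurred there. The miR-483 arms, which had no sequence in that source, were not searched. Of 2367 listed miRNAs with a sequence, 175 (7.39%) had at least 1 such match.

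Depth was greatest in the input, with 2987858 reads on miRNAs; ODD had 426450, LacZ 425395 and EVEN 98950. Levels are given as shares of these totals or as CPM, the same share scaled to a common library size. A count of 0 allows up to 1.00 CPM in the input, 7.05 in LacZ, 30.3 in EVEN and 7.03 in ODD (3 counts of the total). With 1 library per group no difference has a replicate check and no p-value is given. Intervals are 95% exact intervals that cover counting error only, so they compare libraries and not conditions. The 4 skeletal muscle miRNAs used to check the line (miR-206, miR-1-3p, miR-133a-3p and miR-133b) were present in every library and took 3.50% to 10.4% of reads. Most of this was miR-206, at 4.21% in the input, 5.90% in LacZ, 9.53% in EVEN and 3.27% in ODD. By contrast, miR-1-3p went from 1.40% in the input to 0.482%, 0.163% and 0.140%. Markers of liver, neuron, blood and epithelium, 7 in all, took 0.0109% to 0.0875%, with miR-124-3p, the neuronal one, at 1 read in the input and 0 in the pull-downs. Within these lists miR-205-5p, an epithelial marker, differed most between libraries: it had 4 reads in the input, 208 in LacZ, 20 in EVEN and 355 in ODD. The other epithelial markers did not show this rise. miR-200c-3p stayed between 0.00234% (ODD) and 0.00376% (LacZ) of reads. miR-141-3p was highest before any pull-down, at 0.00656% of the lysate library, and had 0 reads with ODD probes. The part of miR-205-5p in the results below was not tested.

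miR-483 was among the abundant miRNAs of RD cells, and its arms were close to equal in the input. miR-483-3p had 8410 input reads, 0.281% of the library (0.275 to 0.288), and ranked 55 of 1146 detected miRNAs. miR-483-5p had 6600 reads, 0.221% (0.216 to 0.226), and ranked 65. The intervals do not overlap, so within the input the 3p arm had more reads, at 1.27 for each 5p read. The arms are different sequences, which may differ in ligation and amplification, so this orders them by reads and not by molecules.

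miR-675, from the neighbouring H19 gene, was at the limit of detection. miR-675-5p had 1 read in the input, 1 in LacZ and 0 in EVEN and ODD. miR-675-3p had 2 reads in the input and 0 in LacZ, EVEN and ODD. In the input the 2 miR-483 arms together had 15010 reads and the 2 miR-675 arms 3, a ratio of 5003 (1712 to 24264). This ratio compares different sequences, whose ligation and amplification may differ, so it orders the hairpins by reads and does not measure molecules.

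The upper bounds for miR-675 were low in the deep input library and wide in the pull-downs. The input interval reached 1.86 CPM for miR-675-5p and 2.42 CPM for miR-675-3p. In EVEN, the shallowest library, 1 read is 10.1 CPM, and an arm at 0 reads could still stand at up to 30.3 CPM, taking 3 counts as the limit. Recovery of miR-675 below that level with EVEN probes could thus have been missed at this depth. Both arms were under the minimum of 20 reads in all 4 libraries and entered no comparison, and no fold is given for them. The 5p arm took 1 of the 3 input reads, 33.3% (0.840 to 90.6), which leaves the arm preference of miR-675 undetermined. In a bulk lysate, few cells with a miRNA and a low level in each cell cannot be told apart.

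**Figure D1:**
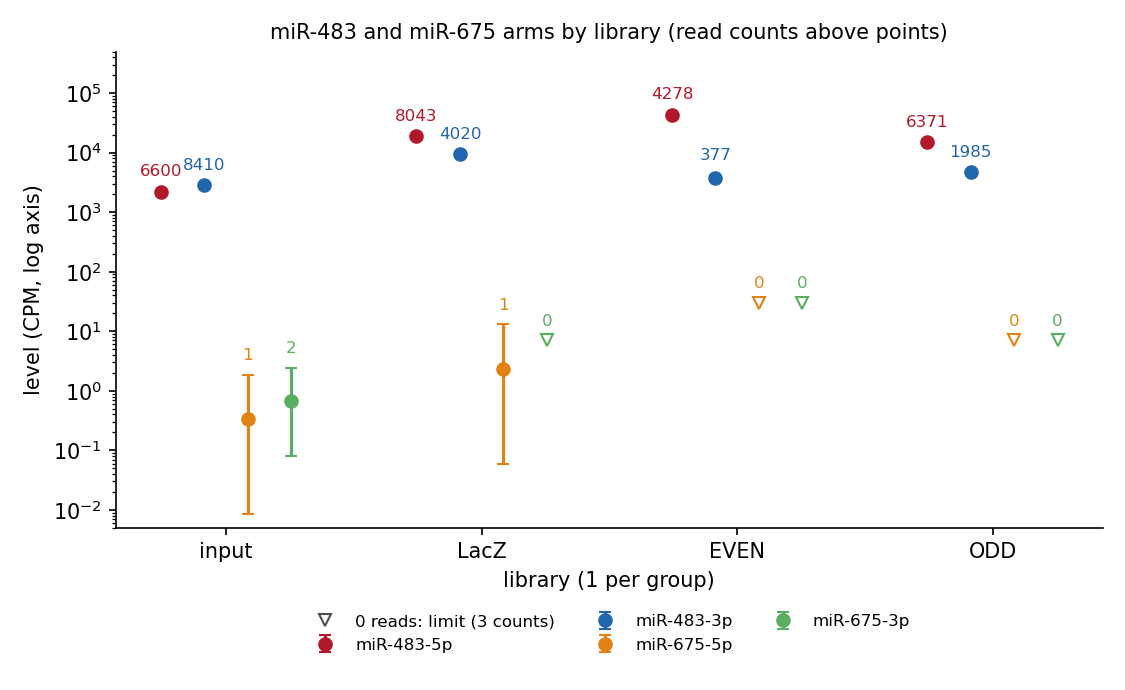
Level of each arm in each library, in CPM on a log axis, with 95% exact counting intervals and the read count above each point; open triangles mark the 3-count limit of arms with 0 reads. miR-483-5p stands highest in EVEN and lowest in the input, miR-483-3p is highest in LacZ by library totals (not with TMM or median-of-ratios scaling, where ODD is higher), and the miR-675 arms have at most 2 reads anywhere.

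miR-483-5p took a larger share of all 3 pull-downs than of the input. It had 8043 reads in LacZ, 1.89% of the library (1.85 to 1.93), 4278 in EVEN, 4.32% (4.20 to 4.45), and 6371 in ODD, 1.49% (1.46 to 1.53). Its rank rose from 65 in the input to 13 in LacZ, 11 in ODD and 6 of 439 detected miRNAs in EVEN. By library totals the order was EVEN, LacZ, ODD, input, and no intervals of neighbours in that order overlapped. The order of LacZ and ODD turned when libraries were scaled by TMM or median-of-ratios factors, which follow the bulk of miRNAs, or by totals without the 10 most abundant miRNAs of any library.

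miR-483-3p moved over a narrower range. It had 4020 reads in LacZ, 0.945% (0.916 to 0.975), 1985 in ODD, 0.465% (0.445 to 0.486), and its lowest pull-down level in EVEN, 0.381% (0.344 to 0.421), or 3810 CPM. LacZ was highest, then ODD, EVEN and the input, again with no overlap between neighbouring intervals, but the order of LacZ and ODD turned with the scaling for this arm too. With both arms summed, the hairpin held 0.502% of input reads, 1.96% of ODD reads, 2.84% of LacZ reads and 4.70% of EVEN reads.

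LacZ over the input compares shares of reads between a pull-down without a target in the cells and the lysate. Retention from the lysate was not tested apart from other differences between these libraries, such as depth. Both measured miR-483 arms were at least 2-fold higher in LacZ, against 18.1% of the 475 miRNAs tested there. A miRNA was tested where either library held 20 or more of its reads. miR-483-5p was 8.56-fold higher (8.28 to 8.84) and ranked 30 from the top. miR-483-3p was 3.36-fold higher (3.23 to 3.49) and ranked 56. Their log2 ratios, 3.10 and 1.75, stood above the median of all tested miRNAs, -0.44. Scaling moved that median by -0.60 (TMM factors) to 0.32 (totals without the most abundant miRNAs), and both arms stayed past 2-fold, at 2.50 to 3.42 and 1.15 to 2.07. The control pull-down, with probes that have no target in the cells, thus already held a larger share of miR-483 than the lysate.

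With the EVEN probes the arms parted. Against the input, miR-483-5p was 19.6-fold higher (18.8 to 20.3), with a log2 ratio of 4.29 and rank 9 of 464 tested miRNAs, of which 18.3% were at least 2-fold higher. miR-483-3p was 1.35-fold higher (1.22 to 1.501), under the 2-fold threshold, which it passed (log2 ratio 1.19) on totals without the most abundant miRNAs. Over all tested miRNAs the median was -1.06, so miR-483-3p, at 0.44, also lay above most of them.

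With the ODD probes miR-483-5p was 6.76-fold above the input (6.53 to 7.001), rank 29 of 468 tested, where 13.0% were at least 2-fold higher. miR-483-3p was 1.65-fold higher (1.57 to 1.74), again under 2-fold by library totals. Its log2 ratio of 0.73 became 1.41 with TMM factors, 1.86 on totals without the most abundant miRNAs and 1.89 by the median of ratios, all past 2-fold. The 3 comparisons with the input share that library, and each pull-down was shallower than it, by 7.01-fold to 30.2-fold.

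The comparison with LacZ sets the circHIPK3 probes beside control probes, again as shares of reads. With EVEN probes miR-483-5p was 2.29-fold above LacZ (2.20 to 2.37), rank 25 of 289 tested miRNAs, of which 9.69% were at least 2-fold higher. miR-483-3p was 2.48-fold lower (2.23 to 2.76), on the same side as 51.2% of tested miRNAs and near their median (log2 ratios of -1.31 and -1.06). The 2 arms of 1 hairpin were thus on opposite sides of LacZ. Scaling raised the median of all tested miRNAs by 0.26 to 0.43. miR-483-5p stayed higher under the alternatives to the scaling and the added count, with log2 ratios of 1.19 to 1.62. miR-483-3p stayed lower, at -1.31 to -0.88, but fell short of 2-fold by the median of ratios (-0.90) and on totals without the most abundant miRNAs (-0.88).

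Few hairpins had opposite arms past 2-fold in that comparison. Calls of higher were scarce there in any case, at 9.69%, beside 51.2% for calls of lower. Whether split hairpins were fewer or more than these rates would give was not tested. Both arms were tested for 60 hairpins, and 3 of them had a higher 5p and a lower 3p arm: miR-423, miR-483 and miR-877. Another 4 had the reverse, miR-133a, miR-188, miR-409 and miR-3184, of which miR-3184 overlaps miR-423 on the other strand. Both arms were lower for 16 hairpins and both higher for 1.

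With ODD probes neither miR-483 arm was above LacZ by library totals. miR-483-5p was 1.27-fold lower (1.22 to 1.31), a log2 ratio of -0.34. miR-483-3p was 2.03-fold lower (1.92 to 2.14), on the side of 70.3% of the 300 tested miRNAs, and its interval spans the 2-fold threshold. The direction depends on the scaling: miR-483-5p had log2 ratios of 0.95 with TMM factors, 1.11 by the median of ratios and 0.47 on totals without the most abundant miRNAs. miR-483-3p turned to 0.27 and 0.43 with TMM factors and by the median of ratios, and was -0.21 on the reduced totals. Those scalings moved the median of all tested miRNAs, -1.79 by library totals, up by 1.29, 1.45 and 0.81. Relative to that median both arms were higher, by 1.45 for miR-483-5p and 0.77 for miR-483-3p. The EVEN and ODD comparisons share the LacZ library.

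Set directly against each other, the 2 circHIPK3 probe sets differed in miR-483-5p. It was 2.89-fold higher with EVEN than with ODD probes (2.78 to 3.01), on the side of 37.9% of the 203 tested miRNAs. The log2 ratio of 1.53 became 0.51 with TMM factors and 0.49 by the median of ratios, which kept its direction but not its 2-fold size. miR-483-3p was 1.22-fold lower with EVEN (1.09 to 1.37), and its log2 ratio of -0.29 became -1.31 and -1.33 with those factors. Those factors shifted the median of all tested miRNAs, 0.64 by library totals, by -1.02 and -1.04.

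**Figure D2:**
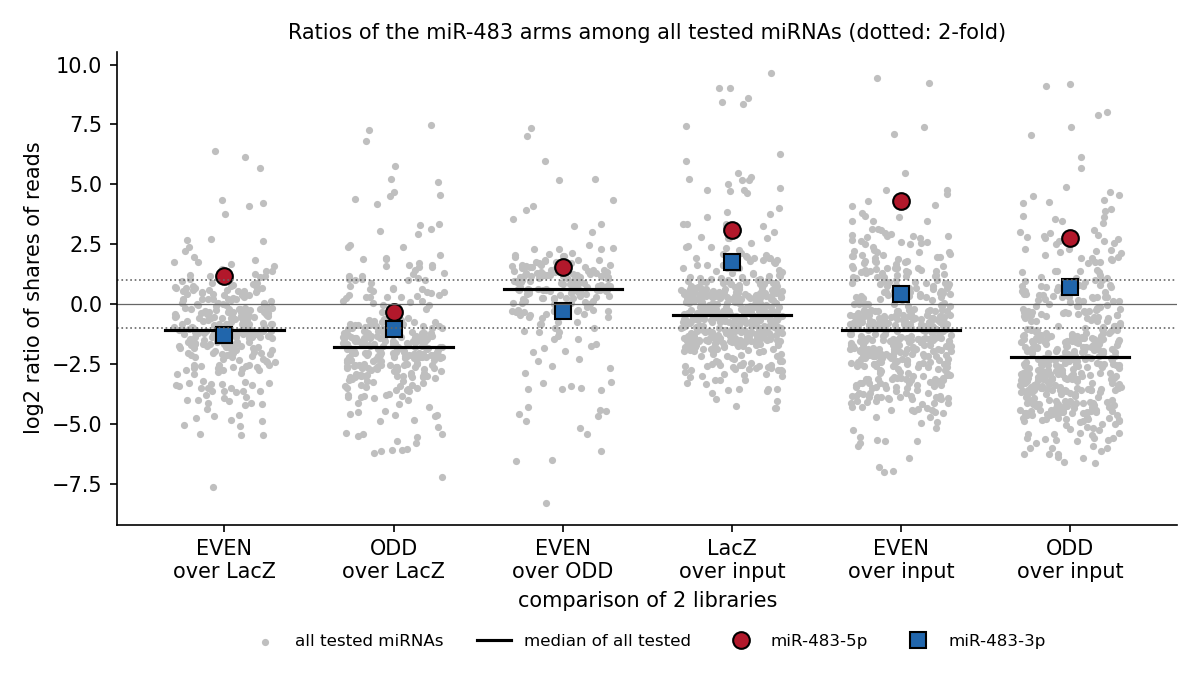
Log2 ratios of the shares of reads in the 6 comparisons of libraries; grey points are all tested miRNAs, black bars their medians, dotted lines the 2-fold threshold, and red circles and blue squares miR-483-5p and miR-483-3p. The 5p arm lies above the 3p arm in each comparison, and in EVEN over LacZ, by library totals, the arms fall beyond opposite thresholds (miR-483-3p is short of its threshold by the median of ratios and on totals without the most abundant miRNAs).

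The balance of the arms needs no scaling between libraries, because both counts come from the same library. The 5p arm took 43.97% of miR-483 reads in the input (43.2 to 44.8), 66.7% in LacZ (65.8 to 67.5), 76.2% in ODD (75.3 to 77.2) and 91.9% in EVEN (91.1 to 92.7). There were 0.785 reads of miR-483-5p for each miR-483-3p read in the input, 2.00 in LacZ, 3.21 in ODD and 11.3 in EVEN. The leading arm, meaning the arm with more reads, was thus 3p in the lysate and 5p in every pull-down, with no overlap between the 4 intervals.

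The ratio of 5p to 3p reads was 14.5-fold higher in EVEN than in the input (12.9 to 16.2), 4.09-fold in ODD (3.85 to 4.34) and 2.55-fold in LacZ (2.43 to 2.68). Against LacZ it was 5.67-fold higher in EVEN (5.07 to 6.36) and 1.60-fold in ODD (1.51 to 1.71). EVEN exceeded ODD by 3.54-fold (3.14 to 3.98). Of these shifts to the 5p arm, the one in LacZ came without probes against circHIPK3.

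Other hairpins shifted towards either arm as well. The background was taken, for each comparison, over hairpins with at least 20 reads in every library and more than 3 reads of each arm in both libraries, so that no shift rested on an arm near 0 reads. The second condition was set after the values had been seen, and it left 47 of 102 hairpins in EVEN over LacZ. Among these 47, the log2 ratio of 5p to 3p reads was past 2-fold towards 5p for 11 and towards 3p for 13, with a median of -0.07. miR-483, at 2.50, was exceeded towards 5p by 5 of them. In EVEN over the input it stood at 3.85 and 3 of 48 hairpins shifted further. In ODD over the input it stood at 2.03 with 16 of 65 further, and in LacZ over the input at 1.35 with 17 of 78 further. In ODD over LacZ its shift of 0.68 was exceeded by 23 of 62.

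miR-483 was 1 of a small set of hairpins whose leading arm changed from 3p to 5p. Of the 102 hairpins, 44 had 3p as the leading arm in the input, and 4 of these had 5p leading in all 3 pull-downs: miR-483, miR-15b, miR-92b and miR-193b. miR-483 had by far the most reads among them in each pull-down, at 4655 or more, against 3517 or fewer in the others. The 5p share of miR-15b in EVEN, from 69 reads of 5p and 56 of 3p, had an exact interval of 46.0% to 64.1%, so its lead there was within counting error. The opposite change, from 5p leading in the input to 3p in all 3 pull-downs, was seen in 2 of 58 hairpins, miR-1307 and miR-296.
The arms of miR-92b, miR-193b and miR-15b are shown, seed in capitals, as the hairpins that share this change. Of the reads of both arms, their 5p arms took 13.4% (miR-92b), 34.3% (miR-193b) and 47.1% (miR-15b) in the input. In the same order they took 57.7%, 62.1% and 55.3% in LacZ, 92.6%, 95.1% and 55.2% in EVEN, and 79.3%, 88.5% and 97.4% in ODD. The 5p share of miR-15b was thus highest in ODD, where that of miR-483 was highest in EVEN.
hsa-miR-92b-5p: aGGGACGGgacgcggugcagug
hsa-miR-92b-3p: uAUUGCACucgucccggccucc
hsa-miR-193b-5p: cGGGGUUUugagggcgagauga
hsa-miR-193b-3p: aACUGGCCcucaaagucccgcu
hsa-miR-15b-5p: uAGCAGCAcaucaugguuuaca
hsa-miR-15b-3p: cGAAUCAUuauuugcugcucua

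These 6 arms have 6 different seeds, and their GC content ran from 36.4% in miR-15b-3p to 72.7% in miR-92b-5p. In the search of HIPK3 exon 2 the miR-193b-3p seed had 1 match and the seeds of the rest had 0, beside 7.39% of all listed miRNAs with a sequence that had a match.

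**Figure D3:**
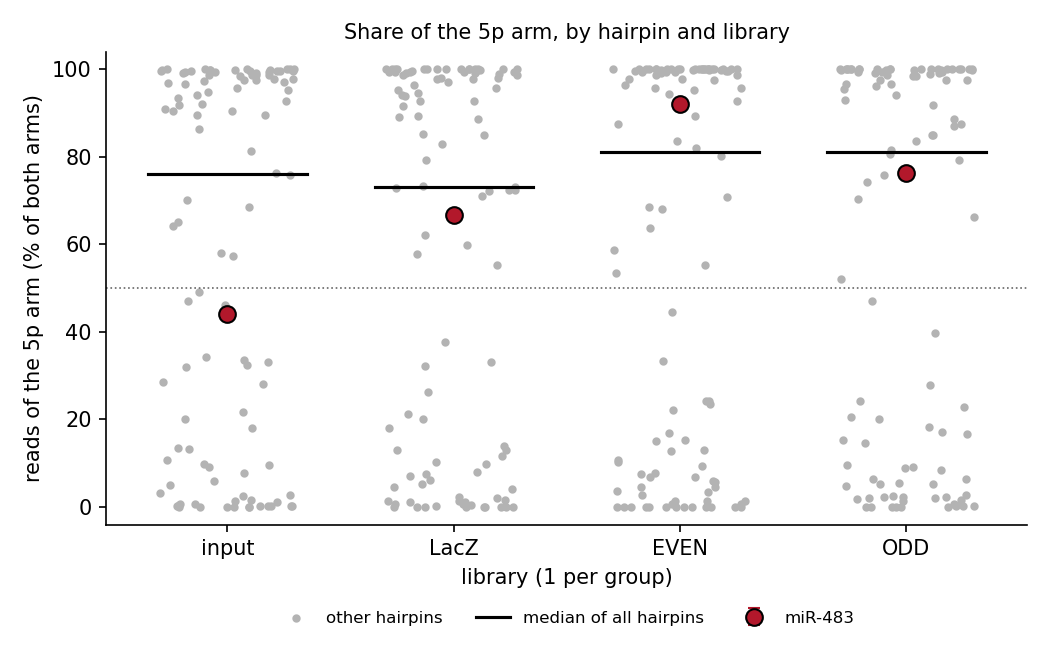
Share of reads from the 5p arm, in percent of both arms, for 102 hairpins with at least 20 reads in each library; grey points are the other hairpins, black bars the median of all, and red points miR-483 with its 95% exact interval, which is smaller than the symbol. miR-483 goes from 43.97% in the input to 66.7% in LacZ, 76.2% in ODD and 91.9% in EVEN.

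The 2 miR-483 arms were not nearest to each other in their profiles over the 4 libraries. Likeness was measured as the Euclidean distance between log2 CPM profiles, each centred on its own mean, over 4 libraries and 461 miRNAs with at least 20 input reads. The arms were 2.78 apart, and miR-483-3p was rank 66 of 460 in nearness to miR-483-5p. In nearness to miR-483-3p, miR-483-5p was rank 235 of 460. Distances between the arms of other hairpins were not compared. Nearest to miR-483-5p were miR-1306-5p (1.03), miR-486-3p (1.06) and miR-1292-5p (1.06). miR-486-3p, from a locus active in muscle and blood cells, had 344 CPM in the input, 1521 in LacZ, 2941 in EVEN and 900 in ODD, the same order of libraries as miR-483-5p. Nearest to miR-483-3p were miR-3074-3p (0.46), miR-508-5p (0.52) and miR-503-3p (0.63), all with 8 or fewer reads in EVEN, as miR-1292-5p had (6), so these places rest on few reads.

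Few other miRNAs annotated near MIR483 were detected. Within 5 Mb of MIR483 the annotation holds 9 hairpins, and the 7 beside MIR483 and MIR675 have 11 listed arms, of which 6 had 0 reads in all libraries. Only miR-210-3p, induced by hypoxia and encoded outside the imprinted genes, reached 20 reads in a library. It had 2002 reads in the input, 50 in LacZ, 13 in EVEN and 73 in ODD, and was 5.70-fold lower in LacZ than in the input (4.31 to 7.71), where miR-483-5p was 8.56-fold higher. Its EVEN level did not separate from LacZ, at 1.12-fold (0.557 to 2.09).

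Other imprinted miRNA clusters were far less abundant than miR-483, apart from miR-335. The 92 listed arms of the maternally expressed 14q32 cluster summed to between 1011 CPM (ODD) and 1311 CPM (input), against 5024, 28357, 47044 and 19594 CPM for the 2 miR-483 arms in the input, LacZ, EVEN and ODD. None of the 92 exceeded either miR-483 arm in any of the 4 libraries; the most abundant in the input were miR-381-3p, with 364 reads, and miR-376a-3p, with 302. The 67 listed arms of the placental C19MC cluster, like miR-675, were close to absent, with 2 reads in the input (1 each of miR-515-5p and miR-520g-3p) and 0 in the pull-downs. miR-335-5p, from an intron of the imprinted gene MEST, had 115290 input reads, more than miR-483. By CPM it had 38586 in the input, 18373 in LacZ, 3719 in EVEN and 3163 in ODD. miR-483-5p had 2209, 18907, 43234 and 14940 CPM, so the 2 were close in LacZ. miR-335-3p had 4076, 3815, 2112 and 1097 CPM.

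Most tested 14q32 arms were not above the input. In LacZ over the input 35 of 92 were tested, with 5 higher, 13 lower and a median log2 ratio of -0.22. Over all tested miRNAs there 18.1% were higher and 34.3% lower, with a median of -0.44. In EVEN over the input 6 were higher and 17 lower with a median of -0.97, beside 18.3% higher, 52.2% lower and -1.06 over all. In ODD over the input 3 were higher and 24 lower with a median of -1.66, beside 13.0% higher, 68.6% lower and -2.19 over all. The miR-483-5p ratios of 3.10, 4.29 and 2.76 lay within the range of the 14q32 arms, whose highest were 4.75, 3.65 and 4.57, for LacZ and ODD, and above it for EVEN. Against LacZ, 11 of the 92 could be tested. EVEN probes gave 3 higher and 5 lower, beside 9.69% and 51.2% over all, and ODD probes 2 higher and 8 lower, beside 13.0% and 70.3%.

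**Figure D4:**
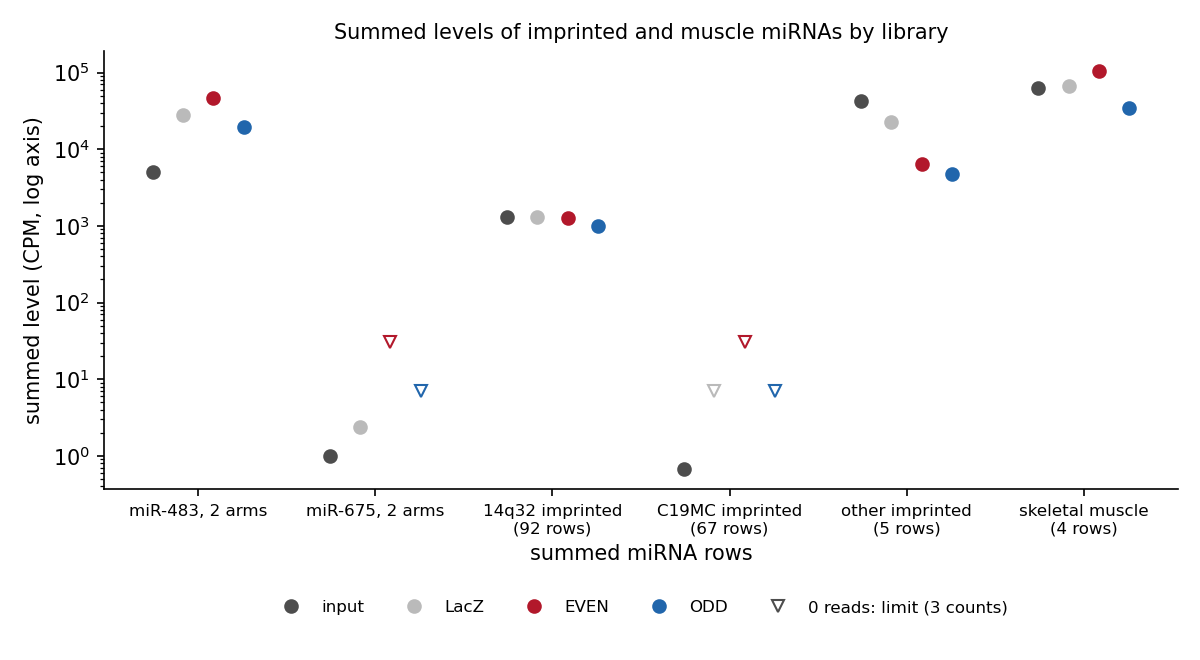
Summed level in CPM, on a log axis, of miR-483, miR-675, 3 groups of other imprinted miRNAs and 4 skeletal muscle miRNAs in each library; open triangles mark the 3-count limit where a sum was 0. miR-483 is lowest in the input, and miR-675 and C19MC lie at or under 3 reads in every library. The miR-335, miR-296 and miR-298 group, mostly miR-335 by input reads, is highest in the input. Of its 4 tested rows, 1 was at least 2-fold above the input in each pull-down. This was miR-296-3p, at log2 ratios of 1.64 in LacZ, 2.23 in EVEN and 1.95 in ODD. At least 2-fold lower were 1 in LacZ, 1 in EVEN and 3 in ODD.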

How the data were processed

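Per the labels' protocols, a QIAGEN QIAseq kit was used to build small RNA libraries of 1 input and 3 pull-downs, read in single-end mode on an Illumina NovaSeq. Raw counts for each mature miRNA, and CPM, are the 2 kinds of value the authors deposited; the deposited CPM equal counts scaled by library totals to within 1.46e-11 CPM. The submitters' processing notes name GRCh38. Not given in the sources used here are trimming, aligner, annotation, multiple mapping, strand and whether molecular identifiers were collapsed; uncollapsed copies would make the counting intervals too narrow.

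Groups came from the titles. For each of 6 comparisons miRNAs with 20 reads in either library were tested: 0.5 was added to each count, the sum divided by the total of the library, and the log2 ratio called at 2-fold. Folds are ratios of shares without the 0.5, with exact conditional Clopper-Pearson intervals, and arm ratios have exact conditional intervals of the odds ratio. Shares have exact Clopper-Pearson intervals. Shares do not give absolute amounts.

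The members, lists and naming rule were chosen with earlier results of these data known. The rule named the 4 members, the 3 nearest profiles of each arm with 20 input reads, arms within 5 Mb with 20 reads in a library, and the 2 most abundant in each list. Hairpins named for their arm balance were chosen after their values were seen. The C19MC list was written as a range of numbers that took in 10 arms of miR-513 and miR-514, which RefSeq places on chromosome X where it lists them. These were left out after this was seen.

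Other settings tried were edgeR's TMM factors (version 4.0.16), size factors by the median of ratios from DESeq2 (version 1.42.0), and totals that leave out the 10 most abundant miRNAs of any library (20 miRNAs). Further settings were a read minimum of 1 or 100, 5 in place of 0.5, CPM with 1 added, a 4-fold threshold, and a counting interval that excludes 1. Software was matplotlib 3.10.9, scipy 1.17.1, numpy 2.4.6, pandas 2.3.3, Python 3.11.15 and R 4.3.3, and the steps were tested on simulated data.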

Additional observations from a re-analysis of the deposited data

How the results depend on the processing

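Of the 2 tested members, the number past 2-fold by library totals was 2 in EVEN over LacZ (1 higher, 1 lower) and 1 in ODD over LacZ (lower). It was 1 in EVEN over ODD, 2 in LacZ over the input, 1 in EVEN over the input and 1 in ODD over the input, all higher. Over all tested miRNAs, 28 were higher and 148 lower of 289 in EVEN over LacZ, 39 and 211 of 300 in ODD over LacZ, and 77 and 37 of 203 in EVEN over ODD. Against the input they were 86 and 163 of 475 in LacZ, 85 and 242 of 464 in EVEN, and 61 and 321 of 468 in ODD. In EVEN over LacZ the count was 1 by the median of ratios and 1 on totals without the most abundant miRNAs, where only miR-483-5p passed. In ODD over LacZ it was 0 with TMM factors and 0 on totals without the most abundant miRNAs; by the median of ratios it was 1, but as miR-483-5p higher, at 1.11, and not miR-483-3p lower. The log2 ratio of miR-483-3p in ODD over LacZ reversed to 0.27 with TMM and 0.43 by the median of ratios. In EVEN over ODD the count stayed 1 with TMM factors and by the median of ratios, but as miR-483-3p lower, at -1.31 and -1.33, in place of miR-483-5p higher. In EVEN over the input the count was 2 on totals without the most abundant miRNAs. In ODD over the input it was 2 with TMM factors, 2 by the median of ratios and 2 on totals without the most abundant miRNAs, miR-483-3p being the added one. At a minimum of 1 read the counts were 2 in ODD over LacZ, 3 in EVEN over the input, 2 in ODD over the input and 3 in LacZ over the input: the added calls are miR-675 arms with at most 2 reads in a library. The condition on each arm's reads, chosen after seeing the data, also changed how many hairpins were compared. In EVEN over LacZ 14 of 102 hairpins shifted further to 5p than miR-483 without it, and 5 of 47 with it. For EVEN over the input these were 7 of 102 without it and 3 of 48 with it. At a 4-fold threshold the counts were 0 in EVEN over LacZ, 0 in ODD over LacZ, 0 in EVEN over ODD and 1 in LacZ over the input. Other scalings changed the sign of 5 miR-483 ratios, all in ODD over LacZ. Other added counts could barely move any ratio. The share of higher calls among all tested miRNAs moved with the scaling too: in EVEN over ODD from 77 higher and 37 lower to 20 and 64 with TMM factors, in ODD over LacZ from 39 and 211 to 66 and 103, and in LacZ over the input from 86 and 163 to 63 and 246. On totals without the most abundant miRNAs it went from 28 and 148 to 44 and 106 in EVEN over LacZ, from 85 and 242 to 123 and 176 in EVEN over the input, and from 61 and 321 to 107 and 238 in ODD over the input. The 5p shares kept their values within counting error with 5 added to each count. No paired analysis was possible because each group has 1 library. Depth limits miR-675 most, in EVEN.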
